A study of Arabidopsis thaliana with 24 samples.

Results

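Most of the transcripts described here belong to starch breakdown and to galactinol synthesis, with 1 gene of starch synthesis beside them. Members were chosen by gene symbol (PWD, DPE1 and APL3) and by probe set identifier (BAM3, GolS2 and GolS3, which the annotation does not name). The symbol PWD stands on 2 probe sets in the platform annotation, so the rule gave 7 probe sets for 7 loci, of 22746 probe sets that are not controls. The second of these PWD probe sets measures AT4G24450, which is a member only through the shared symbol. AT4G24450 is not on the list of starch breakdown loci used below, but it enters every count and median of the 7. All 7 passed the filter on dim probe sets, which asked for a signal of 30 or more on 2 or more of 24 arrays. GolS2 passed it through its late arrays (4 of 12 shoot arrays and 5 of 12 root arrays reached 30), and APL3 and AT4G24450 through shoots. APL3 reached 30 on 0 of 12 root arrays and 10 of 12 shoot arrays, and AT4G24450 on 1 of 12 root arrays and 12 of 12 shoot arrays.

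The study followed Arabidopsis thaliana Col-0 plants during 1 day of cold. Plants raised on Murashige and Skoog medium (24 °C, 16 h days) were moved, on day 16 and after 3 h of light, to a cold room at 4 °C, where the boxes stood on ice with ambient and added light. Roots and shoots were taken after 0.5, 1, 3, 6, 12 and 24 h, and RNA of each of the 12 groups was read on 2 Affymetrix ATH1 arrays. All groups share the wild-type Col-0 background and the cold, and unchilled plants were not analysed here, so the 0.5 h arrays served as the reference in time. The labels do not say whether replicate arrays represent separate plants or cultures, and p-values then measure only the spread between these arrays, which may be technical.

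Leaves store starch in chloroplasts by day and break it down at night. Breakdown begins when the dikinases GWD and PWD put phosphate on the granule surface, which opens it to β-amylases such as BAM3 that release maltose, while DPE1 joins short maltooligosaccharides into longer chains. Starch synthesis starts with ADP-glucose pyrophosphorylase, of which APL3 is a large subunit. Galactinol synthases (GolS) make galactinol from myo-inositol and UDP-galactose, the first committed step towards raffinose, and GolS3 is known in Arabidopsis as the cold-inducible form and GolS2 as a drought- and salt-inducible form. Transcripts of starch breakdown enzymes are known to cycle over the day in Arabidopsis leaves.

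Tissue labels were checked against marker genes. The summed intensity of 4 measured photosynthesis genes (of 15 listed) was 115.7 to 443.3 on root arrays (median 227.25) and 12892 to 21583 on shoot arrays, and that of 3 measured root markers (of 12) was 2988 to 4040.1 on root arrays and 431 to 789 on shoot arrays. Replicate arrays correlated at 0.969 to 0.991. The 25S rRNA control read 212 and 246 on the 0.5 h shoot arrays and 889 to 1862 on the other 10 shoot arrays. The 3′ GAPDH control read 309 on 1 and 491 on the other of 2 arrays (shoots at 1 h, replicate 1, and roots at 3 h, replicate 2), and 799 to 1519 on the other 22. Counted from the schedule in the labels, the samples at 0.5, 1 and 24 h fell 3.5, 4 and 3 h after lights-on, and those at 3, 6 and 12 h fell 6, 9 and 15 h after it. For the 3, 6 and 12 h samples time of day and time in the cold cannot be told apart.

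BAM3 (AT4G17090, TAIR10.1 chr4:9604962-9607402, listed as CT-BMY in RefSeq) is a main chloroplast β-amylase of leaves. It rose in both tissues, and in roots it did so from intensities under 10. Root intensities were 1.34 and 9.17 at 0.5 h, 8.45 and 9.15 at 1 h, 80.8 and 294.4 at 3 h, 532 and 560.1 at 6 h, 651 and 682 at 12 h, and 570.1 and 683 at 24 h. Both arrays of every root group from 3 h on lay above all 4 root arrays of 0.5 and 1 h, and the 3 h arrays stood furthest apart. Shoot intensities were 1010.5 and 1043 at 0.5 h, 1588 and 1041 at 1 h, 3207 and 2618 at 3 h, 5224 and 5140.4 at 6 h, 6374 and 5991 at 12 h, and 7290.2 and 7142 at 24 h. No shoot group from 3 h on overlapped the 0.5 h arrays, and the lowest shoot array still read above the highest root array.

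Changes are given on the log2(intensity + 10) scale with the standard error of the fit, and a change is called where limma's adjusted p is under 0.05. All groups share the estimate of spread of a probe set, so dim root arrays also enter the error of shoot changes. In roots BAM3 rose by 3.50 ± 0.36 at 3 h (adjusted p = 1.3e-05), by 5.24 ± 0.36 at 6 h (2.6e-08), by 5.52 ± 0.36 at 12 h (5.6e-09) and by 5.43 ± 0.36 at 24 h (4.4e-09), each against 0.5 h. The 3 h root value was 2.62 without replicate 2 of 3 h, the brighter array and 1 of the 2 with low GAPDH, and 4.37 without replicate 1, called in both cases. Because the 0.5 h root arrays were so dim, the size of the root change was not fixed: at 24 h it was 7.0 with a pseudocount of 1 and 4.15 with one of 32, called in both cases. In shoots BAM3 rose by 2.32 ± 0.36 at 6 h (adjusted p = 0.00014), by 2.58 ± 0.36 at 12 h (2e-05) and by 2.80 ± 0.36 at 24 h (5.2e-06), which was 7.03 times the 0.5 h intensity at 24 h. The shoot change at 3 h, 1.49 ± 0.36, had an adjusted p of 0.015 that rose to between 0.05 and 0.12 when any 1 of the 4 arrays was left out and was not called against 1 h (1.17, adjusted p = 0.1).

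No change of BAM3 from 12 to 24 h was called. The difference of 24 h minus 12 h was -0.09 in roots (95% interval -0.86 to 0.67) and 0.22 in shoots (-0.54 to 0.99). The root groups at 12 and 24 h overlapped, and in shoots both 24 h arrays lay above both 12 h arrays. The mean root level was 6.44% of the shoot level at 3 h, 10.5% at 6 h, 10.8% at 12 h and 8.68% at 24 h, and at 0.5 and 1 h the root arrays were too dim to give a share. For RCA, Rubisco activase, whose root arrays all read above 30, the same share lay between 1.58% and 3.57% over all times. In these bulk samples fewer cells of a type and less RNA per cell cannot be told apart.

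The same 4 photosynthesis genes were read on root arrays, where shoot RNA carried over and transcripts made in roots cannot be told apart. Their sum on root arrays was lowest at 12 h (149.7 and 159.1) and 24 h (122.6 and 115.7), against 191 and 311.9 at 0.5 h. Within the 3 h root group it was 184 on replicate 1 and 443.3 on replicate 2, and BAM3 read 80.8 on replicate 1 and 294.4 on replicate 2. The part of shoot RNA in the root values of BAM3 was not tested. The photosynthesis gene LHCB4.2, an antenna protein, fell by 2.51 ± 0.27 in roots at 24 h (adjusted p = 1.5e-06). Its shoot mean was also lower at 24 h (1456) than at 0.5 h (4757). The sum of the 4 genes on shoot arrays was likewise lowest at 24 h (12892 and 14178), against 16553 and 16845 at 0.5 h.

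**Figure D1:**
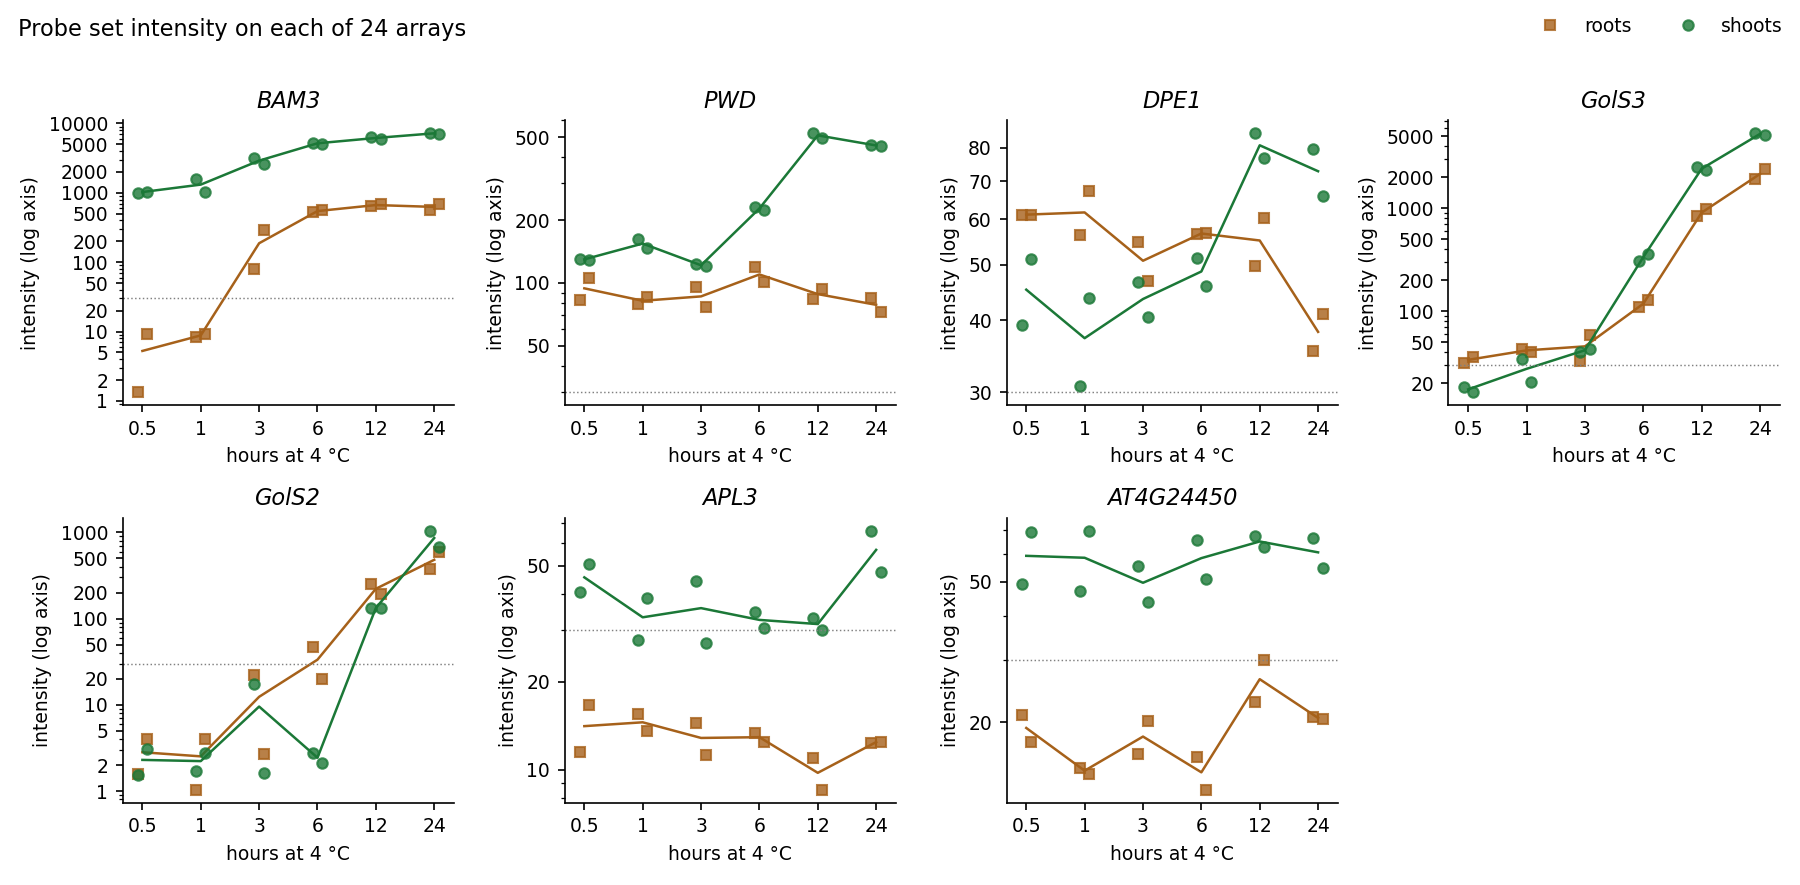
Probe set intensity (log axis, with its own range in each panel) against hours at 4 °C for the 7 members; squares are root arrays, circles are shoot arrays, lines join the means of 2 arrays, and the dotted line marks the intensity of 30 used as the filter. BAM3, GolS2 and GolS3 climb in both tissues, PWD and DPE1 climb late in shoots only, and APL3 and AT4G24450 stay low in roots.

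PWD (AT5G26570, TAIR10.1 chr5:9261479-9267732), phosphoglucan water dikinase, rose in shoots and was not called in roots at any time. Root intensities were 82.8 and 105.7 at 0.5 h, 79.0 and 85.4 at 1 h, 96.0 and 76.5 at 3 h, 119 and 100.6 at 6 h, 83.5 and 93.4 at 12 h, and 84.6 and 72.6 at 24 h. Shoot intensities were 130.8 and 128.7 at 0.5 h, 161.7 and 147.2 at 1 h, 122.6 and 120.5 at 3 h, 232 and 223 at 6 h, 523 and 496 at 12 h, and 458 and 454 at 24 h. All 6 shoot arrays from 6 h on lay above all other PWD values, while in roots the 0.5 h arrays overlapped every later group.

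The shoot rise of PWD came between 3 and 12 h. It was 0.77 ± 0.14 at 6 h (adjusted p = 0.00053) and 1.89 ± 0.14 at 12 h (5.2e-09). At 24 h, when the samples were close in time of day to those at 0.5 h, it was 1.74 ± 0.14 (1.3e-08), or 3.51 times the 0.5 h intensity. The 12 h arrays read higher than the 24 h arrays, but the difference of 24 h minus 12 h, -0.16, was not called (95% interval -0.45 to 0.13). In roots the 24 h change was -0.23 ± 0.14 (adjusted p = 0.18). The change from 0.5 h differed between tissues, roots minus shoots, by -1.97 ± 0.19 at 12 h and by -1.97 ± 0.19 at 24 h (adjusted p = 1.2e-06 at both times). The root level fell as a share of the shoot level, with 72.7% at 0.5 h, 53.2% at 1 h, 71.0% at 3 h, 48.3% at 6 h, 17.4% at 12 h and 17.3% at 24 h.

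The second probe set with the symbol PWD measures AT4G24450 (TAIR10.1 chr4:12635061-12642808), which RefSeq also lists under the synonym ATGWD2, a relative of the glucan water dikinase. Its intensity ran from 12.9 to 30.1 on root arrays and from 43.8 to 69.7 on shoot arrays, with no overlap between tissues. No change from 0.5 h was called, with 0.07 ± 0.18 in roots and 0.04 ± 0.18 in shoots at 24 h (95% intervals -0.32 to 0.45 and -0.35 to 0.42). The 12 h change in roots, 0.31 (adjusted p = 0.22), was called only after quantile normalization (0.51) or against 1 h (0.56).

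DPE1 (AT5G64860, TAIR10.1 chr5:25925173-25928879), the plastid disproportionating enzyme, differed between the 2 tissues in its change at 24 h. Root intensities were 61.2 on both arrays at 0.5 h, 56.3 and 67.1 at 1 h, 54.9 and 46.8 at 3 h, 56.6 and 56.8 at 6 h, 49.8 and 60.4 at 12 h, and 35.4 and 41.0 at 24 h. Shoot intensities were 39.2 and 51.3 at 0.5 h, 30.8 and 43.7 at 1 h, 46.6 and 40.6 at 3 h, 51.4 and 46.0 at 6 h, 84.9 and 76.7 at 12 h, and 79.6 and 66.0 at 24 h. The 24 h root arrays were the lowest in roots and the 4 shoot arrays of 12 and 24 h were the highest in shoots.

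In roots DPE1 fell by 0.56 ± 0.16 at 24 h (adjusted p = 0.0073), in a comparison where the median of all tested probe sets was -0.21. The root change was not called after median centring of the arrays (-0.36, adjusted p = 0.062), after quantile normalization (-0.30, adjusted p = 0.099) or without replicate 1 of 24 h (-0.48, adjusted p = 0.058). In shoots DPE1 rose by 0.72 ± 0.16 at 12 h (adjusted p = 0.0014) and by 0.59 ± 0.16 at 24 h (0.0046), against medians of -0.17 and -0.20 over all probe sets. The 24 h shoot rise was not called without replicate 1 of 0.5 h (0.43, adjusted p = 0.073) or replicate 1 of 24 h (0.47, adjusted p = 0.059). The difference between tissues in the 24 h change, roots minus shoots, was -1.15 ± 0.22 (adjusted p = 0.00077). At 12 h it was -0.86 ± 0.22 (adjusted p = 0.01), a call that was lost without shoot replicate 1 of 0.5 h (-0.70, adjusted p = 0.061) or root replicate 1 of 12 h (-0.74, adjusted p = 0.054). The root level was 135.1% of the shoot level at 0.5 h, 117% at 6 h, 68.3% at 12 h and 52.5% at 24 h.

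APL3 (AT4G39210, TAIR10.1 chr4:18259547-18263468), the starch synthesis member, was dim in both tissues. Root intensities ran from 8.52 to 16.7 over the 12 arrays. Shoot intensities were 40.6 and 50.6 at 0.5 h, 27.8 and 38.7 at 1 h, 44.4 and 27.1 at 3 h, 34.7 and 30.5 at 6 h, 33.1 and 30.03 at 12 h, and 65.9 and 47.4 at 24 h. The 24 h shoot arrays overlapped those of 0.5 h and lay above those of 12 h. Against 0.5 h no change was called, with -0.10 ± 0.19 in roots and 0.25 ± 0.19 in shoots at 24 h (adjusted p = 0.71 and 0.27). The shoot value was called after median centring (0.44, adjusted p = 0.049), after quantile normalization (0.44, adjusted p = 0.038) and against 1 h (0.62, adjusted p = 0.01). From 12 to 24 h APL3 rose in shoots by 0.67 ± 0.19 (adjusted p = 0.016), which was not called without any 1 of 3 of the 4 arrays (adjusted p = 0.057, 0.098 and 0.17).

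GolS3 (AT1G09350, TAIR10.1 chr1:3019639-3021443) rose in both tissues. Root intensities were 31.5 and 35.8 at 0.5 h, 43.0 and 40.1 at 1 h, 32.7 and 58.2 at 3 h, 109 and 126.8 at 6 h, 829.8 and 978 at 12 h, and 1909.7 and 2384 at 24 h. Shoot intensities were 18.4 and 16.3 at 0.5 h, 34.5 and 20.4 at 1 h, 40.2 and 43.1 at 3 h, 309 and 359.6 at 6 h, 2500.5 and 2326 at 12 h, and 5362 and 5148 at 24 h. Each group from 6 h on, in both tissues, lay wholly above the group before it.

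In roots GolS3 rose by 1.55 ± 0.20 at 6 h (adjusted p = 4.5e-05), by 4.39 ± 0.20 at 12 h (7.6e-11) and by 5.62 ± 0.20 at 24 h (2.3e-12), which was 63.9 times the 0.5 h intensity at 24 h. In shoots it rose by 3.65 ± 0.20 at 6 h (3e-10), by 6.47 ± 0.20 at 12 h (9.7e-14) and by 7.59 ± 0.20 at 24 h (4.6e-14). Both 0.5 h shoot arrays were below 30, and the 24 h shoot change was 8.16 with a pseudocount of 1 and 6.74 with one of 32. Its rise of 0.92 ± 0.20 at 3 h in shoots (adjusted p = 0.0065) was not called against 1 h (0.49, adjusted p = 0.26), nor without replicate 2 of 0.5 h (adjusted p = 0.068) or of 3 h (0.06). From 12 to 24 h it rose further, by 1.23 ± 0.20 in roots (adjusted p = 0.001) and by 1.12 ± 0.20 in shoots (0.00062). The root arrays of GolS3 lay above the shoot arrays at 0.5 h, where the shoot arrays were below 30, and below them from 6 h on, with means of 35.2%, 37.5% and 40.9% of the shoot level at 6, 12 and 24 h. The difference between tissues in its change, roots minus shoots, was -2.10 ± 0.28 at 6 h (adjusted p = 8.6e-05), -2.08 ± 0.28 at 12 h (4e-05) and -1.97 ± 0.28 at 24 h (5.4e-05). Over the alternatives run it stayed called and ranged from -2.41 to -1.70 at 6 h, from -2.33 to -1.42 at 12 h and from -2.21 to -1.10 at 24 h.

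GolS2 (AT1G56600, TAIR10.1 chr1:21207537-21209635) read 22.1 or less on every array up to 3 h in roots and up to 6 h in shoots. Root intensities were 1.59 and 4.05 at 0.5 h, 1.03 and 4.02 at 1 h, 22.1 and 2.71 at 3 h, 47.0 and 19.8 at 6 h, 250.5 and 193 at 12 h, and 374 and 588 at 24 h. Shoot intensities were 1.52 and 3.08 at 0.5 h, 1.71 and 2.75 at 1 h, 17.5 and 1.60 at 3 h, 2.75 and 2.12 at 6 h, 134 and 131.5 at 12 h, and 1045 and 676 at 24 h. At 12 h the root arrays lay above the shoot arrays, and at 24 h they lay below them.

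Because GolS2 passed the filter through its late arrays, a late rise is in part what the filter selects. In roots GolS2 rose by 4.17 ± 0.41 at 12 h (adjusted p = 8.1e-07) and by 5.23 ± 0.41 at 24 h (3e-08). Its root change at 6 h, 1.69 ± 0.41 (adjusted p = 0.014), was not called without replicate 1 of 0.5 h (adjusted p = 0.12) or of 6 h (0.2). In shoots it rose by 3.54 ± 0.41 at 12 h (2.1e-06) and by 6.12 ± 0.41 at 24 h (1.6e-09). The 24 h changes depended in size on the pseudocount, with 7.02 in roots and 8.04 in shoots for 1 and 3.85 in roots and 4.67 in shoots for 32. From 12 to 24 h GolS2 rose in shoots by 2.58 ± 0.41 (adjusted p = 0.00022), or 6.48 times, and in roots the difference was 1.06 ± 0.41 (adjusted p = 0.11), called with a pseudocount of 32 (0.99, adjusted p = 0.014). No difference between tissues in its change from 0.5 h was called at 3, 6, 12 or 24 h, with -0.89 at 24 h (95% interval -2.11 to 0.34). Whether either probe set also binds transcripts of other galactinol synthases was not tested.

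**Figure D2:**
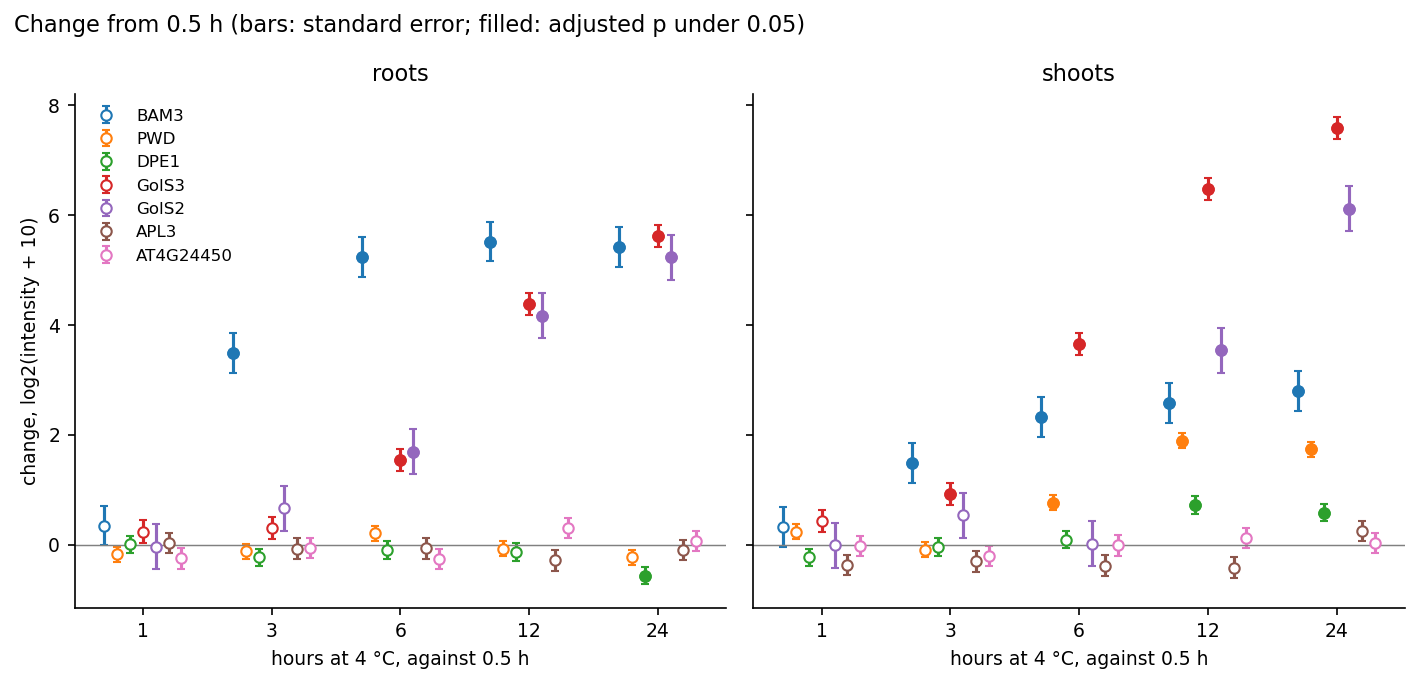
Change from 0.5 h in log2(intensity + 10) for the 7 members at 1, 3, 6, 12 and 24 h, roots left and shoots right; points are fitted differences, bars their standard errors, and filled points have an adjusted p under 0.05. In roots BAM3 is called at 3 h (3.50, or 2.62 without replicate 2), and in shoots GolS3 reaches 7.59 at 24 h.

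Counted over the members, few were called early and most late in shoots. Members were chosen with earlier results of these data known. The counts here and below therefore describe a chosen set, and the shares over all probe sets beside them are no test of it. At 1 h 0 of 7 were called in roots, where 0.0187% of all tested probe sets were called, and 0 of 7 in shoots, where 2.82% were. At 3 h 1 rose in roots, where 2.13% of probe sets were called higher, and 2 rose in shoots, where 5.29% were. At 6 h 3 rose in roots (5.23% of probe sets called higher) and 3 in shoots (9.74%). At 12 h 3 rose in roots (9.93%) and 5 in shoots (14%). The members that rose at 12 and 24 h include GolS2, which passed the filter through its late arrays.

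At 24 h 3 rose and 1 fell in roots, where 15.5% of probe sets were called higher and 32.5% lower. In shoots 5 rose and 0 fell at 24 h, where 19.2% were called higher and 34.3% lower. The median 24 h change of the 7 was 0.07 in roots and 1.74 in shoots, beside -0.21 in roots and -0.20 in shoots over all tested probe sets. Because of how the members were chosen, these medians too are a description only. From 12 to 24 h 1 member rose in roots (5.01% of probe sets called higher) and 3 rose in shoots (10.4%). The 3 in shoots were GolS3, GolS2 and APL3. Of these GolS2 passed the filter through its late arrays, and the call of APL3 was lost when some single arrays were left out.

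The tissues also differed in level on average over all times. Of the 7 members 5 were lower in roots than in shoots and 0 were higher, where 29.2% of probe sets were called lower and 57.6% higher, with a median of 0.30. BAM3 differed by -4.38 ± 0.15, PWD by -1.25 ± 0.06, AT4G24450 by -1.25 ± 0.07, APL3 by -1.09 ± 0.08 and GolS3 by -0.49 ± 0.08 (roots minus shoots). The average hides that the order of the means turned for GolS3 and DPE1. Roots and shoots were not tested against each other at single times. GolS3 means were 33.6 in roots and 17.4 in shoots at 0.5 h, where both shoot arrays were below 30. At 24 h they were 2147 in roots and 5255 in shoots. DPE1 means were 61.2 in roots and 45.3 in shoots at 0.5 h, and 38.2 in roots and 72.8 in shoots at 24 h. For AT4G24450 and APL3, which passed the filter through shoots, a lower root level is in part what the filter selects. GolS2 differed by 0.31 ± 0.17 (adjusted p = 0.094), which was called without shoot replicate 1 of 3 h (0.41), root replicate 2 of 3 h (0.42) or root replicate 2 of 6 h (0.39), and without both arrays of low GAPDH (0.41). DPE1 differed by 0.02 ± 0.06 (adjusted p = 0.83), and the sign turned to a called lower root level after median centring (-0.17, adjusted p = 0.018) and quantile normalization (-0.18, adjusted p = 0.0093).

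Differences between tissues in the change from 0.5 h were called for 0 members at 3 h, where 2.05% of probe sets were called. At 6 h the signed difference, roots minus shoots, was called positive for 1 member (3.04% of probe sets) and negative for 1 (4.7%). At 12 h it was called positive for 1 (10.4%) and negative for 3 (10.7%), and at 24 h positive for 1 (15.5%) and negative for 3 (16.7%). The member with a called positive difference was BAM3, with 2.91 ± 0.51 at 6 h (adjusted p = 0.0012), 2.94 ± 0.51 at 12 h (0.00045) and 2.63 ± 0.51 at 24 h (0.00083). The size depended on the pseudocount: at 24 h the difference was 4.19 with a pseudocount of 1 and 1.37 with one of 32. In intensity the mean of BAM3 reached 627 in roots at 24 h against 5.25 at 0.5 h, and 7216 in shoots at 24 h against 1027 at 0.5 h, the larger gain in units of intensity.

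**Figure D3:**
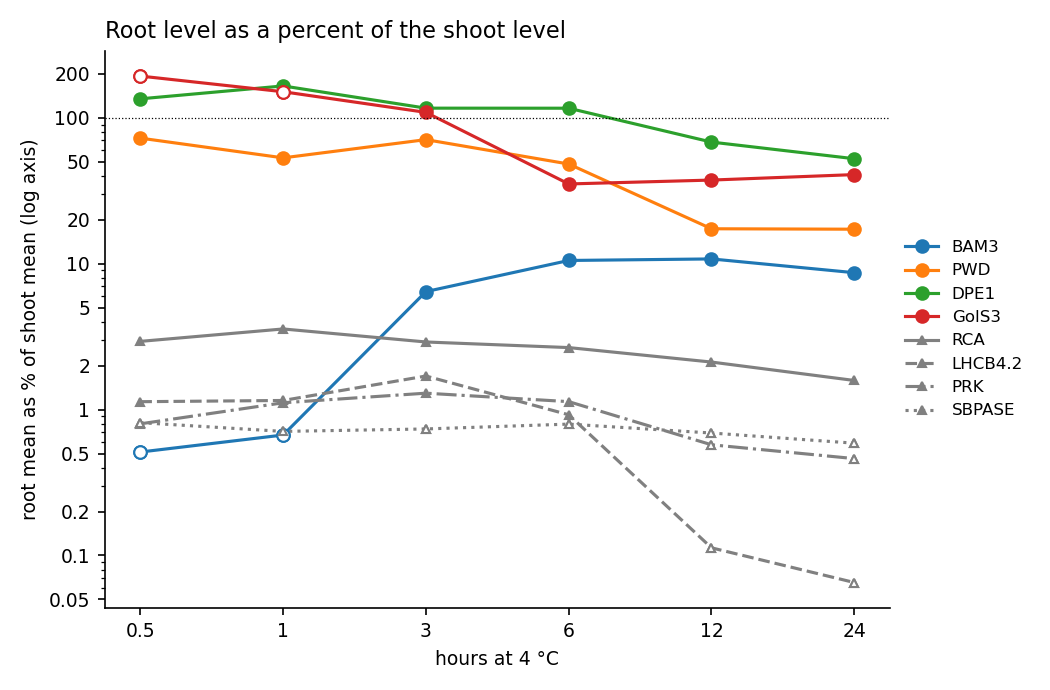
Mean root intensity as a percent of mean shoot intensity (log axis) at each time for 4 members (circles) and 4 photosynthesis genes (grey triangles); hollow symbols have a root or shoot mean below 30 and carry no reliable share, and the dotted line marks equal levels. BAM3 lies between 6.44% and 10.8% from 3 h on, PWD and DPE1 end lower than they start, and RCA lies between 1.58% and 3.57%.

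The order of the 12 group means differed between members. For BAM3 all 6 shoot groups ranked above all 6 root groups, from shoots at 24 h (7216) to roots at 0.5 h (5.25), and neighbours overlapped for shoots at 1 and 0.5 h, for roots at 12 and 24 h, and for roots at 1 and 0.5 h. For PWD the order ran from shoots at 12 h (509) over shoots at 24 h (456) and 6 h (227) to roots at 24 h (78.6), and each root group overlapped the next in order. For GolS3 shoots at 24 h (5255) and 12 h (2413) led, and shoots at 12 h overlapped roots at 24 h (2147), followed by roots at 12 h (904) and shoots at 6 h (335). For GolS2 shoots at 24 h (861) were followed by roots at 24 h (481), roots at 12 h (222) and shoots at 12 h (133), with no overlap among these 4. For DPE1 shoots at 12 h (80.8) and 24 h (72.8) led and overlapped, and shoots at 1 h (37.3) and roots at 24 h (38.2) were lowest and overlapped. For APL3 and AT4G24450 all 6 shoot groups ranked above all 6 root groups, and neighbours within shoots overlapped throughout.

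Other genes of the same pathways were read from lists of loci. Loci were found only through the gene that the annotation names for a probe set, and 8730 of 22746 probe sets have none. Other loci of the lists may thus be among the tested probe sets without a name, as BAM3, GolS2 and GolS3 were. Of 23 starch breakdown loci 0 beyond the members had a named probe set that was tested. Of 14 galactinol and raffinose loci 0 had a named probe set. Of 16 starch synthesis loci 2 were tested beside APL3, and of 15 sucrose and sugar transport loci 4 were tested. At 24 h 1 of the 2 starch synthesis genes fell in roots, and in shoots 1 rose and 1 fell. Of the 4 sucrose and transport genes 1 rose in roots, and 2 rose and 1 fell in shoots. Over all tested probe sets 15.5% rose and 32.5% fell in roots, and 19.2% rose and 34.3% fell in shoots.

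APL4, another large subunit of ADP-glucose pyrophosphorylase, had 6.37 and 5.0 in roots at 24 h, against 4.56 and 5.83 at 0.5 h, and 56.0 and 66.8 in shoots at 24 h, against 8.23 and 15.3 at 0.5 h. Its change was 0.05 ± 0.33 in roots (adjusted p = 0.92), and it rose by 1.73 ± 0.33 in shoots (0.00025). APL4 passed the filter through shoots, where 1 array each at 1 and 6 h and both arrays at 12 and 24 h reached 30. Its rise in shoots is thus in part what the filter selects. SBE2.2, a starch branching enzyme, had 78.2 and 68.4 in roots at 24 h, against 109.8 and 137.3 at 0.5 h, and 345.5 and 364 in shoots at 24 h, against 559 and 595 at 0.5 h. It fell by 0.68 ± 0.14 in roots (adjusted p = 0.00072) and by 0.69 ± 0.14 in shoots (0.00046).

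TMT2, a vacuolar sugar transporter, had 116.1 and 120.8 in roots at 24 h, against 61.3 and 74.0 at 0.5 h, and 596 and 534 in shoots at 24 h, against 70.2 and 86.7 at 0.5 h. It rose by 0.73 ± 0.18 in roots (adjusted p = 0.003) and by 2.70 ± 0.18 in shoots (1.5e-09). TMT1, its relative, had a change of 0.04 ± 0.14 in roots (adjusted p = 0.82) and rose by 1.15 ± 0.14 in shoots (1.7e-06). The shoot mean of TMT1 was highest at 12 h (151) and lower at 24 h (101), and its 24 h rise was 0.695 against 1 h. SPS4F, a sucrose phosphate synthase, had a change of 0.45 ± 0.20 in roots (adjusted p = 0.075) and fell by 1.81 ± 0.20 in shoots (7.7e-07). Root SPS4F read 7.43 to 19.9, below 30 on all 12 arrays, and its root value was called after median centring (0.65), after quantile normalization (0.66) and without replicate 2 of 24 h (0.65). SPP2, a sucrose phosphate phosphatase, had changes of 0.21 ± 0.19 in roots and -0.12 ± 0.19 in shoots (adjusted p = 0.38 and 0.62). The 24 h change differed between tissues, roots minus shoots, by -1.97 ± 0.25 for TMT2 (adjusted p = 1.8e-05), -1.11 ± 0.19 for TMT1 (0.00028) and -1.68 ± 0.46 for APL4 (0.0098). Root APL4 read 3.89 to 11.8, below 30 on every array, where the size of a change is limited by the signal over background. As APL4 passed the filter through shoots, its tissue difference is also in part what the filter selects. For SPS4F the difference was 2.25 ± 0.28 (1.3e-05), and for SBE2.2 and SPP2 none was called (0.01 and 0.33).

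**Figure D4:**
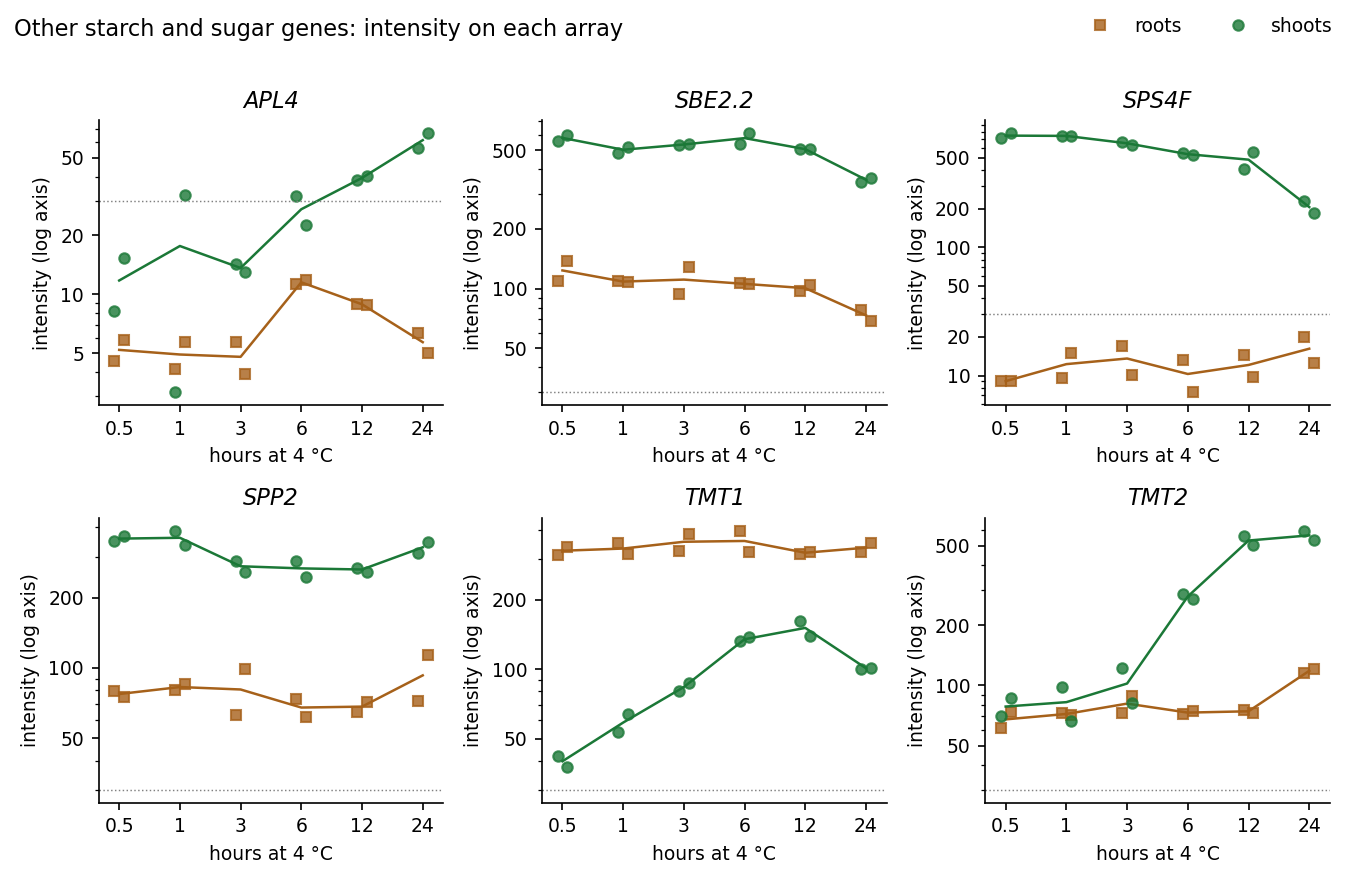
Intensity (log axis, with its own range in each panel) against hours at 4 °C for 6 genes that are not members. They are the starch synthesis, sucrose and sugar transport genes of the lists with a named and tested probe set. Squares are root arrays, circles are shoot arrays, and lines join the means of 2 arrays. In shoots TMT2 and APL4 end higher and SPS4F and SBE2.2 lower at 24 h than at 0.5 h, and TMT1 is higher in roots than in shoots throughout.

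The genes most like each member were ranked by Pearson's r over the 12 group means of log2 values, among up to 1250 tested probe sets with 1 named gene. The 12 points share arrays and the split between tissues, so r is a description. For BAM3 these were LPR2 (r = 0.918), TCP15 (0.881) and NGA2 (0.869). For PWD they were UGT72B3 (0.979), SWEET4 (0.967) and APL4 (0.966), the last being the subunit described above. For GolS2 they were LEA4-5 (0.977), SAT32 (0.961) and EXLA2 (0.95), and for GolS3 TUB9 (0.961), UGT78D2 (0.961) and TIL (0.960). For DPE1 they were GID1A (0.901), FIS1B (0.900) and UBC37 (0.833). For APL3 they were GSTU16 (0.979), WSD1 (0.973) and MRL7-L (0.961), and for AT4G24450 GLC (0.988), FTSZ2-1 (0.983) and CPNIFS (0.983).

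Among the members GolS2 and GolS3 had the highest r with each other over the 12 groups, 0.918. The same pair had 0.995 over the 6 root times and 0.895 over the 6 shoot times. PWD and DPE1 had r = 0.493 over the root times and 0.939 over the shoot times. PWD and GolS3 had r = -0.33 over the root times and 0.970 over the shoot times, where PWD was called in shoots and not in roots.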

How the data were processed

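Deposited here were 24 columns of linear-scale intensity, 1 value per probe set, which MAS5 produced per the submitters' processing notes. How MAS5 was set, its version and its detection calls were not used here. After trimming 2% at each end, every deposited array had a mean of 100, a common target. Here 64 control probe sets were set aside, 10 was added and log2 was taken, which understates changes of dim probe sets. The 16073 of 22746 probe sets with at least 30 on at least 2 of 24 arrays were tested with limma 3.58.1 (R 4.3.3) in 1 model of 12 group means (12 residual and 4.9 prior degrees of freedom). Tests were 2-sided, with Benjamini-Hochberg adjustment within each of 17 comparisons and a threshold of 0.05. The test was run on simulated data first.

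Groups came from sample titles. Members, gene lists, comparisons and alternatives were chosen with earlier results of these data known. The genes named were all members, every gene of 4 pathway lists with a named and tested probe set, and the 3 probe sets most like each member. Loci, symbols and positions came from the platform annotation and RefSeq (TAIR10.1). The number of arrays limits precision. Replicate numbers were checked for pairing: over 66 pairs of groups, deviations of same-numbered arrays correlated at -0.45 to 0.33 (median -0.01), so the numbers were not used as pairs. Alternatives were a pseudocount of 1 or 32, no filter, median centring, quantile normalization, a replicate block, a trend in the prior variance, arrays of 1 tissue only, 1 h as the baseline and each array left out. Leaving out the 2 arrays of low GAPDH, and single arrays for roots against shoots, was added after the data were seen.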

Additional observations from a re-analysis of the deposited data

Results flagged for a closer look

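The change from 0.5 h differed between roots and shoots in 10 results by the interaction test in limma (roots minus shoots, adjusted p under 0.05). BAM3 had differences of 2.91 at 6 h, 2.94 at 12 h and 2.63 at 24 h, with the larger log2 change in roots. GolS3 had differences of -2.10 at 6 h, -2.08 at 12 h and -1.97 at 24 h. PWD had differences of -1.97 at 12 h and -1.97 at 24 h, where shoots rose and no root change was called. DPE1 had differences of -0.86 at 12 h and -1.15 at 24 h. With 2 arrays in a group, single arrays could not be tested as outliers.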

How the results depend on the processing

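Of the values of single genes under alternatives, 1882 kept their side of the threshold, and their direction where called. Another 21 lost a call, 22 gained one and 2 turned with a call (DPE1, roots against shoots, -0.17 after median centring and -0.18 after quantile normalization). Values called in neither fit could change sign among the 1882, such as DPE1 in shoots at 3 h (-0.04, and 0.19 against 1 h). The calls of BAM3 from 6 h on, of GolS2 and GolS3 at 12 and 24 h, of PWD in shoots from 6 h on, and of the called tissue differences of BAM3, GolS3 and PWD, were kept under every alternative run. The number of members called in shoots at 3 h (2) was 1 with a pseudocount of 1, 0 against 1 h and 0 to 1 with an array left out. The number at 1 h in shoots (0) was 0 to 1 with an array left out, where GolS3 was the gene gained. The number for the tissue difference at 3 h (0) was 1 with a pseudocount of 1, quantile normalization, a prior trend or without the arrays of low GAPDH, and 0 to 1 with an array left out. The gene gained was BAM3, except GolS3 without the arrays of low GAPDH. The number in roots from 12 to 24 h (1) was 2 with a pseudocount of 32.

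Over all probe sets, calls in shoots at 1 h (453) were 205 with shoot arrays only, 167 without the arrays of low GAPDH and 112 to 2210 with an array left out, the most without replicate 2 of 1 h. Calls in roots at 3 h (393) were 162 against 1 h, 256 without the arrays of low GAPDH and 205 to 1254 with an array left out, the most without replicate 1 of 3 h. Calls in shoots at 3 h (1238) were 571 against 1 h and 756 to 841 with an array left out. Calls for the tissue difference at 3 h (330) were 166 against 1 h and 218 to 571 with an array left out. With an array left out there were 2214 to 2403 at 6 h in shoots (3483), 735 to 883 at 6 h in roots (1223), 2916 to 3077 at 12 h in roots (4450), 2018 to 2448 from 12 to 24 h in shoots (3676) and 517 to 1797 from 12 to 24 h in roots (1868). Fewer arrays enter such a fit, and the cause of the other moves was not tested. Beside 0 members called, an unadjusted p under 0.05 was found for 366 probe sets at 1 h in roots, 2992 at 1 h in shoots and 2014 for the tissue difference at 3 h.

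Rescaling moved the share of calls that were higher. At 24 h it was 32.3% in roots, against 51.5% after median centring and 43.6% after quantile normalization, and 36% in shoots, against 49.7% and 45.6%. At 12 h it was 35.9% in roots, against 52.7% and 45.3%, and 34.8% in shoots, against 48.6% and 43.2%, and from 12 to 24 h in roots 43.1%, against 61.5% and 54.5%. With the replicate block 7572 probe sets were called at 24 h in roots and 8491 in shoots, beside 7710 in roots and 8606 in shoots without it, and the block changed no call of a member. For roots against shoots, leaving out all arrays of 1 replicate number leaves the model of group means no residual degrees of freedom, and a model with fewer terms was not run, so no counts are given there. At low signal, as for GolS2 and root BAM3 early on, the size of a change is limited by the signal over background.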
